A study of Mus musculus with 8 samples.

Results

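The receptor complex for bacterial lipopolysaccharide (LPS) and its adaptors were followed as 9 genes: the receptor Tlr4, its co-receptors Cd14 and Ly96, the adaptors Myd88, Tirap, Ticam1 and Ticam2, and the homologous pair Cd180 and Ly86. The genes were taken by symbol, 1 row each, from a table of 55414 gene rows, and all 9 passed the filter on low counts that left 14004 genes for testing. The libraries were made from red pulp macrophages, the splenic macrophages that clear aged red blood cells, sorted by flow cytometry from spleens of WT C57BL/6J mice. Of the 8 libraries, 4 were taken 2 h after cecal ligation and puncture (CLP), a surgical sepsis model in which gut bacteria leak into the abdomen, and 4 were taken 2 h after sham surgery. No other treatment is named for either group. The labels do not tie each library to a separate mouse, so the p-values measure the spread between these libraries, which may in part be technical.

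LPS, the outer-membrane glycolipid of Gram-negative bacteria, is handed by CD14 to MD-2, the product of Ly96, which sits on the outer part of TLR4 and holds the lipid. TLR4 at the cell surface recruits TIRAP and MyD88, the route to NF-kB and inflammatory cytokines, and TLR4 taken into endosomes recruits TRAM (Ticam2) and TRIF (Ticam1), the route to IRF3 and interferon-beta. CD180 and its partner MD-1 (Ly86) resemble TLR4 and MD-2 but lack a signalling TIR domain, and CD180 has been described as a brake on TLR4 in macrophages and as an activating receptor in B cells.

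Total counts lay between 15392992 and 25665633 per library, so that a level of 1 CPM (TMM-scaled read counts relative to library size) stood for 15.1 to 27.6 reads. All 13 red pulp macrophage markers were tested. Their summed level was 45668 to 52835 CPM in CLP and 39360 to 48510 CPM in sham, led by Vcam1 at 16138 ± 1980 and 12611 ± 1181 CPM. By edgeR 6 of them were called higher, Spic and Vcam1 among them, and 1 was called lower. The lower marker was Slc40a1, whose mean was 3414 CPM in CLP and 4514 CPM in sham, without overlap (edgeR adjusted p = 0.0074). With library totals 1 of the 13 was higher and 3 were lower. Of 13 neutrophil markers, 9 lay under 1 CPM, Ly6g and Elane among them, and the summed level was 103 to 176 CPM in CLP and 77.5 to 94.1 CPM in sham, led by Csf3r. Of the 4 tested, 3 were called higher in CLP without overlap: Csf3r (79.0 to 111 CPM) and, named after their values were seen, S100a8 (1.60 to 6.93 CPM, adjusted p = 0.00351 by edgeR) and S100a9 (2.06 to 9.90 CPM, adjusted p = 0.0053 by edgeR). The 9 others were too low to test. Among them Mpo (2.05 to 0.109 CPM), Elane (0.353 to 0.016 CPM), Mmp9 (0.590 to 0.288 CPM) and Cxcr2 (0.455 to 0.189 CPM) had lower means in CLP. Ly6g, Camp, Ltf, Ngp and Mmp8 had higher means, each under 1 CPM. Summed monocyte markers were 1438 to 1624 CPM in CLP against 1145 to 1413 CPM in sham. Most of this was Nr4a1 (856 and 715 CPM) and Treml4 (588 and 540 CPM), which is also on the red pulp macrophage list. Of 10 tested monocyte markers only Fn1 was called, as higher. Ly6c2 (1.67 and 1.47 CPM) and Ccr2 (2.30 and 1.95 CPM) did not pass. B cell markers summed to 134 to 211 against 139 to 230 CPM (led by Ighm), and T and NK cell markers to 111 to 143 against 104 to 112 CPM (Cd4). Dendritic cell markers summed to 113 to 125 against 73.3 to 95.8 CPM (Bst2) and platelet markers to 25.7 to 30.5 against 9.25 to 12.3 CPM (Ppbp). Of 7 tested dendritic cell markers 57.1% were called, Zbtb46, Ccr7 and Bst2 as higher and Clec9a as lower (10.8 to 6.40 CPM). Of 5 tested platelet markers 4 were called higher and 0 lower. Marginal zone macrophage markers summed to 112 to 373 CPM in CLP, the highest value in CLP replicate 3, and to 62.3 to 115 CPM in sham. Marco made up almost all of each sum, and Cd209b and Cd209d lay under 1 CPM in every library. Erythroid markers summed to 759 to 1288 CPM in CLP and 335 to 1575 CPM in sham, the highest value in sham replicate 4 (Slc4a1). Of 8 tested, 50% were called. Hbb-bs (46.7 to 139 CPM), Hbb-bt (9.95 to 24.2 CPM) and Alas2 (111 to 329 CPM) were higher in CLP without overlap. Epor was lower (35.7 to 18.0 CPM), and Slc4a1 did not pass. None of these markers was at 0 in every library, and the part of other cells in the results was not tested.

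The receptor and its partners moved in opposite directions. Tlr4 was lower after CLP, Cd14, Ly96, Myd88, Ticam1 and Ly86 were higher, and Tirap, Ticam2 and Cd180 did not pass the test, with edgeR's quasi-likelihood test and Benjamini-Hochberg adjustment over all genes at a threshold of 0.05. The 6 called genes are 6 of 9, where 43.3% of all tested genes were called, 19.8% as higher and 23.5% as lower. The same 6 had no overlap between the groups, as had 41.5% of all tested genes. The median log2 fold change of the 9 genes was 0.45, and that of all tested genes was -0.05. With libraries scaled by their totals instead of TMM, the median of all genes moved to -0.37, and then 4 of the 9 were higher, Ly86 no longer passed at -0.05, and Cd180 was called lower at -0.21 (adjusted p = 0.0376).

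**Figure D1:**
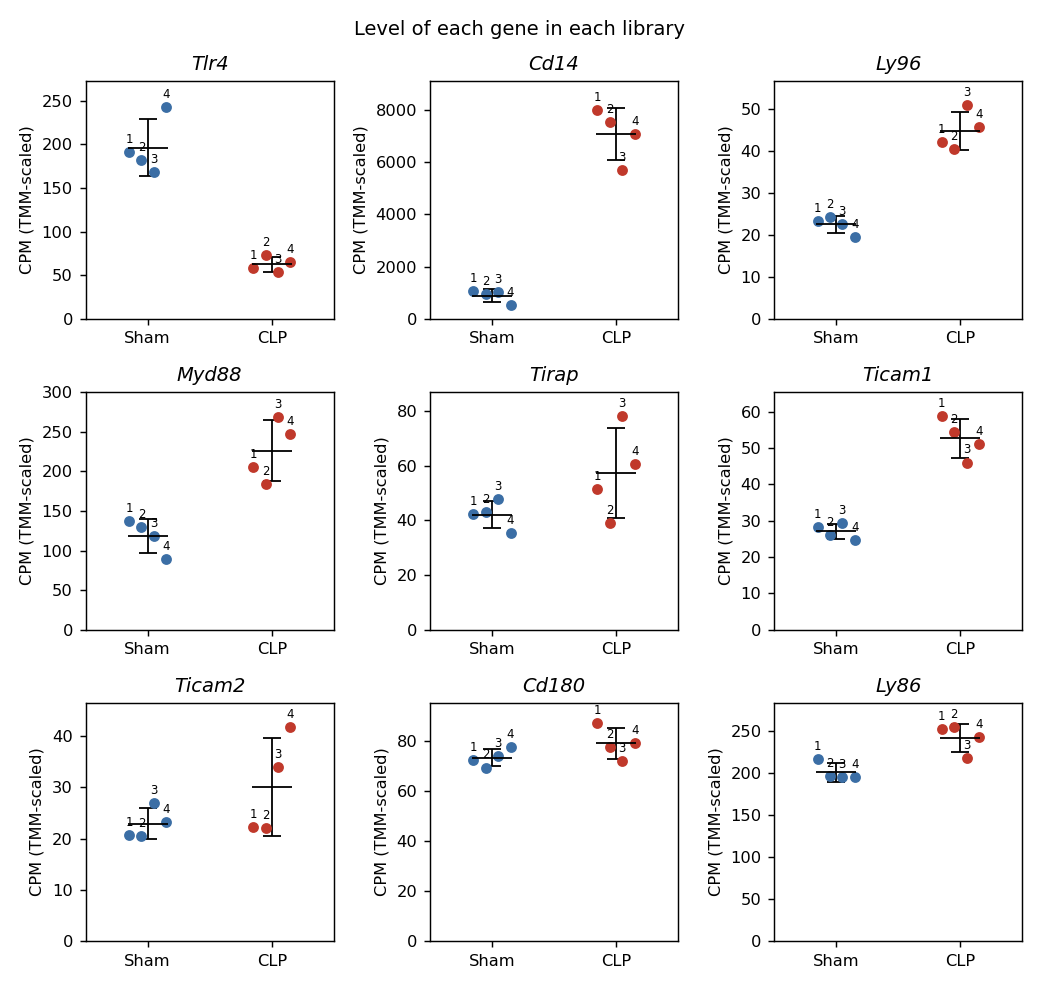
Each panel shows 1 gene, with its TMM-scaled CPM on a linear axis from 0 and 1 point per library (4 Sham, 4 CLP) with mean and SD. Tlr4 lies at 168 to 243 CPM in sham and 53.4 to 73.0 CPM in CLP, Cd14 moves the other way, and the groups overlap for Ticam2, Tirap and Cd180.

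Tlr4 (ENSMUSG00000039005), the signalling receptor, stood at 191, 182, 168 and 243 CPM in the sham libraries and at 57.6, 73.0, 53.4 and 64.7 CPM in the CLP libraries. Every CLP library lay below every sham library, and sham replicate 4 was the highest. The mean fell from 196 ± 32.9 to 62.2 ± 8.57 CPM (SD, n = 4 each), which is a log2 fold change of -1.66 (SE 0.13, 95% interval -1.94 to -1.37, adjusted p = 6.21e-06 by edgeR), or 3.15-fold. Without sham replicate 4 the log2 fold change was -1.51. In bulk RNA a lower level per cell and fewer cells that carry the transcript cannot be told apart.

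Cd14 (ENSMUSG00000051439), the surface protein that passes LPS to the complex, was at 1050, 946, 1010 and 506 CPM in sham and at 8002, 7532, 5712 and 7069 CPM in CLP. The lowest CLP library lay far above the highest sham library, and within sham replicate 4 stood below the other libraries. The mean rose from 878 ± 252 to 7079 ± 988 CPM, a log2 fold change of 3.01 (SE 0.23, 95% interval 2.49 to 3.54, adjusted p = 1.53e-05 by edgeR), or 8.06-fold. It was 2.84 without sham replicate 4.

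Ly96 (ENSMUSG00000025779), which encodes the lipid-holding subunit MD-2, was at 23.4, 24.3, 22.7 and 19.6 CPM in sham and at 42.3, 40.6, 51.0 and 45.7 CPM in CLP, without overlap. The mean rose from 22.5 ± 2.05 to 44.9 ± 4.57 CPM, a log2 fold change of 1.00 (SE 0.10, 95% interval 0.78 to 1.22, adjusted p = 2.24e-05 by edgeR). Both genes whose products present LPS to TLR4 therefore rose where the receptor gene itself fell.

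Of the 4 adaptors, the 2 that pass the signal downstream in each arm rose by similar amounts. Myd88 (ENSMUSG00000032508) was at 137, 130, 118 and 89.1 CPM in sham and at 206, 184, 269 and 247 CPM in CLP. The means were 119 ± 21.2 and 227 ± 38.8 CPM, a log2 fold change of 0.93 (SE 0.15, 95% interval 0.59 to 1.28, adjusted p = 0.000837 by edgeR). Ticam1 (ENSMUSG00000047123), which encodes TRIF, was at 28.2, 26.1, 29.4 and 24.7 CPM in sham and at 58.8, 54.5, 46.0 and 51.2 CPM in CLP. The means were 27.1 ± 2.08 and 52.6 ± 5.39 CPM, a log2 fold change of 0.96 (SE 0.10, 95% interval 0.75 to 1.17, adjusted p = 2.11e-05 by edgeR). For both genes all CLP libraries lay above all sham libraries, and within CLP the order of the libraries was not shared: replicate 3 was the highest for Myd88 and the lowest for Ticam1.

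The 2 sorting adaptors, which bring the others to the receptor, showed a wide spread within CLP. Tirap (ENSMUSG00000032041), which bridges TLR4 and MyD88 at the plasma membrane, was at 42.4, 43.0, 47.7 and 35.4 CPM in sham and at 51.5, 39.2, 78.3 and 60.7 CPM in CLP. CLP replicate 2 lay inside the sham range. The log2 fold change was 0.45 (SE 0.19, 95% interval 0.02 to 0.87), with an adjusted p of 0.0841 by edgeR. The call rests on the tool and on that library: DESeq2 gave 0.48 with an adjusted p of 0.0281, edgeR without CLP replicate 2 gave 0.60 with 0.00805, edgeR without CLP replicate 3 gave 0.26 with 0.183, and edgeR on library totals gave 0.13 with 0.569.

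Ticam2 (ENSMUSG00000056130), which encodes TRAM and links TLR4 to TRIF in endosomes, was at 20.7, 20.5, 27.0 and 23.3 CPM in sham and at 22.3, 22.1, 34.0 and 41.9 CPM in CLP. CLP replicates 1 and 2 lay inside the sham range, and replicates 3 and 4 lay above it. The log2 fold change was 0.40 (SE 0.21, 95% interval -0.07 to 0.86, adjusted p = 0.152 by edgeR), and it was 0.20 without CLP replicate 4. Exons of Ticam2 share 838 bases, 14.5% of their length, with Tmed7 on the same strand in the annotation used for names, and Tmed7 was at 157 ± 5.79 CPM after sham surgery and 195 ± 6.23 CPM after CLP. Reads from the shared bases cannot be given to either gene from the counts, so both values are uncertain.

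The homologous pair had small fold changes. Cd180 (ENSMUSG00000021624) was at 72.7, 69.5, 74.2 and 77.6 CPM in sham and at 87.3, 77.7, 72.3 and 79.5 CPM in CLP, with overlapping groups. Its log2 fold change was 0.11 (SE 0.08, 95% interval -0.06 to 0.27, adjusted p = 0.281 by edgeR), and with library totals it turned to -0.21. Ly86 (ENSMUSG00000021423) was at 217, 196, 195 and 195 CPM in sham and at 252, 255, 218 and 243 CPM in CLP. The mean rose 1.20-fold, from 201 ± 10.8 to 242 ± 16.8 CPM, a log2 fold change of 0.27 (SE 0.07, 95% interval 0.10 to 0.43, adjusted p = 0.0129 by edgeR), but with library totals it was -0.05 with an adjusted p of 0.559. The groups of Ly86 touch, since CLP replicate 3 at 218 CPM lay next to sham replicate 1 at 217 CPM.

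**Figure D2:**
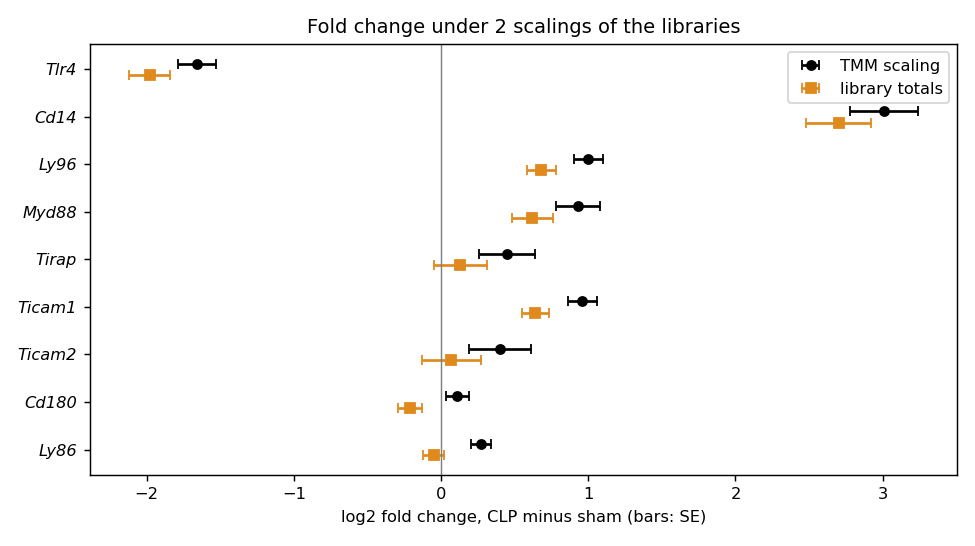
Log2 fold change of each gene, CLP minus sham, with SE, under TMM scaling and under library totals. Tlr4 (-1.66 and -1.98) and Cd14 (3.01 and 2.70) keep their direction under both, while Ly86 (0.27 and -0.05) and Cd180 (0.11 and -0.21) cross 0.

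Other genes overlap 3 more members on the opposite strand in that annotation: Acaa1a covers 11.3% of the exon length of Myd88, Mast4 4.04% of that of Cd180, and Gm39318 9.05% and Srpr 0.791% of that of Tirap. Since the strand setting of the counting is not given in the sources used here, these reads cannot be told apart with certainty. No exon overlap was found for Tlr4, Cd14, Ly96, Ticam1 and Ly86.

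Dividing CPM by exon length puts the 9 genes on 1 scale per kb. In sham the order was Cd14 at 507 ± 145 CPM per kb, Ly86 at 55.3 ± 2.99, Myd88 at 46.0 ± 8.22, Tlr4 at 35.3 ± 5.93, Ly96 at 22.0 ± 2.01, Cd180 at 16.3 ± 0.747, Ticam1 at 9.05 ± 0.696, Tirap at 8.54 ± 1.03 and Ticam2 at 3.95 ± 0.521 CPM per kb. The ranges of Myd88 and Tlr4, and of Ticam1 and Tirap, overlapped. In CLP the order was Cd14 at 4087 ± 570 CPM per kb, Myd88 at 88.0 ± 15.0, Ly86 at 66.6 ± 4.63, Ly96 at 44.0 ± 4.48, Ticam1 at 17.6 ± 1.80, Cd180 at 17.6 ± 1.37, Tirap at 11.6 ± 3.34, Tlr4 at 11.2 ± 1.54 and Ticam2 at 5.19 ± 1.66 CPM per kb. There the ranges of Ticam1 and Cd180, and of Tirap and Tlr4, overlapped. Tlr4 thus stood above Ly96 and Cd180 in sham and below both in CLP. With the longest transcript as the length, Tlr4, Ly96 and Cd180 were at 48.1, 33.7 and 27.7 CPM per kb in sham and at 15.3, 67.4 and 29.9 CPM per kb in CLP, so that crossing held, although other neighbours changed places: Tlr4 and Tirap in CLP, Ticam1 and Tirap in sham, and Ticam1 and Cd180 in CLP, where Cd180 then lay above Ticam1 (17.6 CPM per kb) without overlap.

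**Figure D3:**
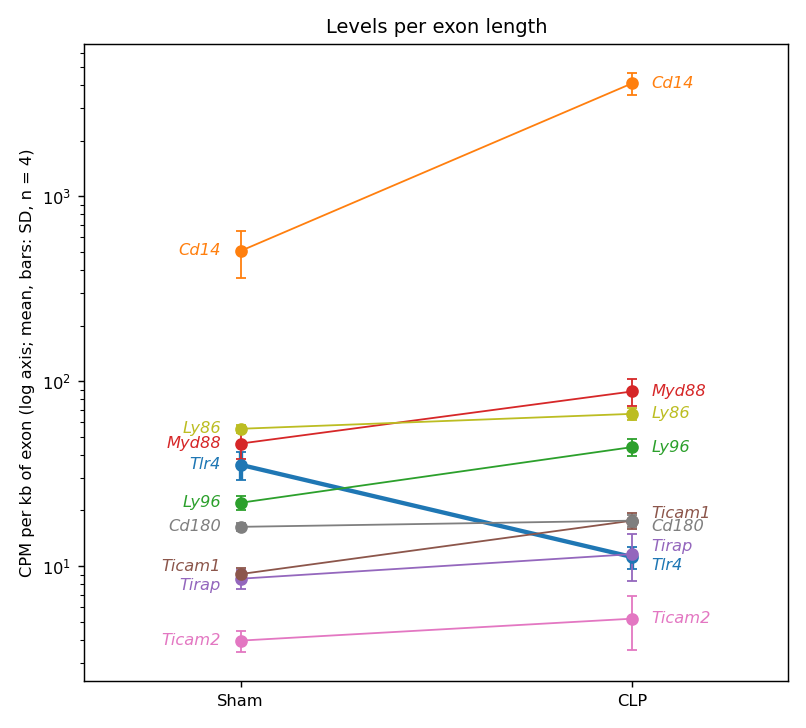
CPM per kb of exon on a log axis, 1 line per gene from the sham mean to the CLP mean (bars SD, n = 4). Tlr4 is the line that crosses downward, from 35.3 to 11.2 CPM per kb, past Ly96 and Cd180.

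Ratios of 2 genes within a library do not depend on how libraries are scaled, and 8 were compared by a two-sided exact permutation test over all 70 assignments of the libraries, whose smallest p is 0.0286. Cd14 reads per Tlr4 read ran from 2.08 to 6.03 in sham, with a median of 5.35, and from 103 to 139 in CLP, with a median of 108. The mean log2 ratio was 2.12 ± 0.72 in sham and 6.83 ± 0.19 in CLP, a 26.1-fold difference. Sham replicate 4 held the lowest ratio, at a log2 value of 1.06 against 2.38 to 2.59 in the other sham libraries.

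Ly96 reads per Tlr4 read went from 0.0806 to 0.135 in sham to 0.557 to 0.955 in CLP, a 6.27-fold difference (log2 means -3.11 ± 0.35 and -0.46 ± 0.32). Cd180 reads per Tlr4 read were 0.319 to 0.443 in sham and 1.06 to 1.51 in CLP, a 3.38-fold difference (log2 means -1.40 ± 0.19 and 0.36 ± 0.22). In each sham library Tlr4 thus had more reads than Cd180, and in each CLP library fewer. Between the partner subunits, Ly86 reads per Ly96 read were 8.08 to 9.94 in sham and 4.27 to 6.27 in CLP, 1.66-fold lower. Tirap per Myd88 was 1.44-fold lower in CLP, with log2 means of -1.48 ± 0.19 and -2.01 ± 0.18. These 5 ratios separated the groups without overlap (exact permutation p = 0.0286, 0.0457 after Benjamini-Hochberg adjustment over the 8).

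The other 3 ratios did not pass the adjusted threshold. Ticam1 per Myd88, which sets the TRIF adaptor against the MyD88 adaptor, had log2 means of -2.11 ± 0.22 in sham and -2.10 ± 0.38 in CLP (exact permutation p = 0.886). Ly86 per Cd180 had log2 means of 1.45 ± 0.11 and 1.61 ± 0.08 (exact permutation p = 0.0571, adjusted 0.0762). Ticam2 per Ticam1 had log2 means of -0.25 ± 0.18 and -0.86 ± 0.57 (exact permutation p = 0.143, adjusted 0.163), with the CLP libraries at -1.40, -1.30, -0.44 and -0.29. Without CLP replicate 2, sham replicate 3 or sham replicate 4 the adjusted p of the 5 called ratios was above the threshold, at 0.0571 or, for Tirap per Myd88, 0.0914, and without sham replicate 1 Ly86 per Cd180 passed at 0.0381.

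**Figure D4:**
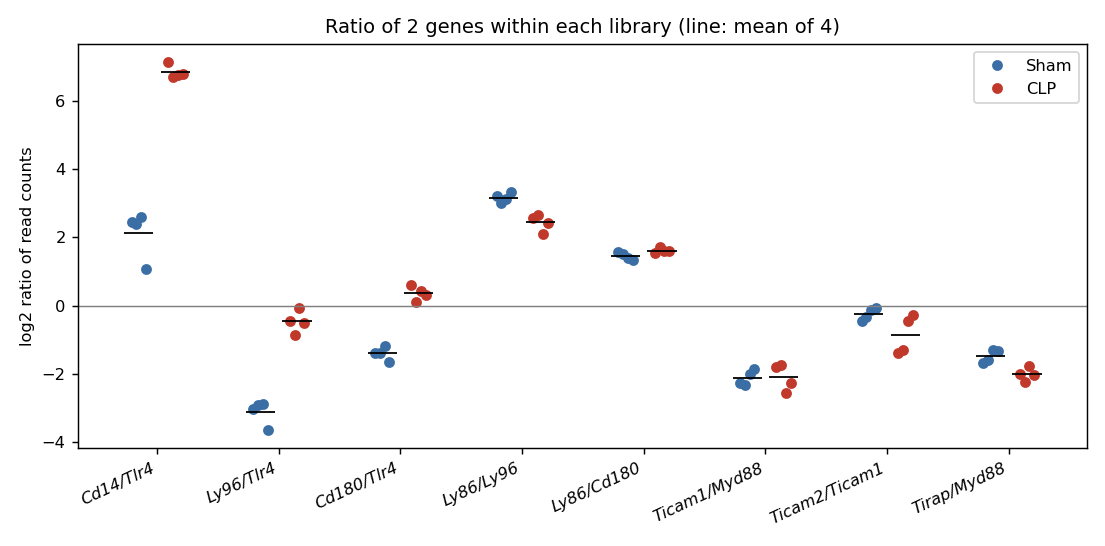
Log2 ratio of the read counts of 2 genes within each library (points; line, mean of 4), sham and CLP side by side. Cd14/Tlr4, Ly96/Tlr4 and Cd180/Tlr4 are higher and Ly86/Ly96 and Tirap/Myd88 lower in CLP without overlap. The groups overlap for Ticam1/Myd88, Ly86/Cd180 and Ticam2/Ticam1.

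Myd88 and Ticam1 rose by 0.93 and 0.96 on the log2 scale, so their promoters are shown, as the 250 bases before the start site from RefSeq on build GRCm38.p6, an older build than the mm39 named for the counts. Myd88 lies at chr9:119340019-119340268 and Ticam1 at chr17:56276768-56277017, both on the minus strand and written 5′ to 3′ along the gene. Capitals mark an IRF element (GAAA, any 2 bases, GAAA) in Myd88 and a PU.1 core (GAGGAA) in Ticam1.
Myd88: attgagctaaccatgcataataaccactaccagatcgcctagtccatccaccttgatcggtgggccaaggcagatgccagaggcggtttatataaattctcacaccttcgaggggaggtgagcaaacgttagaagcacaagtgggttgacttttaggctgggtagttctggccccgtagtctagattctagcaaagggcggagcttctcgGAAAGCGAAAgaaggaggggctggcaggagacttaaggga
Ticam1: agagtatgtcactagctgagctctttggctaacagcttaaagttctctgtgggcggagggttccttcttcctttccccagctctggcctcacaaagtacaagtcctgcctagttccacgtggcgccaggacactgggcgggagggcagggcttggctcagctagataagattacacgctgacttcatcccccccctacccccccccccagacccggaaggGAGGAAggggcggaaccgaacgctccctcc
The IRF match begins 40 bases and the PU.1 match 30 bases before the start site. On either strand, 2.98% of 32851 promoters of this length held the IRF element and 23.3% the PU.1 core. An NF-kB site was in 3.9% of all promoters and an AP-1 site (TGANTCA) in 6.75%, and neither was in these 2 windows. None of the 4 motifs was found in the windows of Tirap, Cd180 and Ly86. Promoters of 5 of the 9 genes were matched, and those of Tlr4, Cd14, Ly96 and Ticam2 were not shown.

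Sham replicate 4 was the lowest of the sham libraries for 6 of the 9 genes (Cd14, Ly96, Myd88, Ticam1, Tirap and Ly86) and the highest for Tlr4 and Cd180. It also held the highest erythroid marker sum, 1575 CPM against 335 to 533 CPM in the other sham libraries, and the part of this in the results was not tested. Without it the log2 fold changes were 0.96 for Ly96, 0.84 for Myd88, 0.94 for Ticam1 and 0.28 for Ly86, and the same 6 genes passed. CLP replicate 3 was the lowest CLP library for Tlr4, Cd14, Ticam1, Cd180 and Ly86 and the highest for Ly96, Myd88 and Tirap. Its neutrophil marker sum was 176 CPM against 103 to 138 CPM in the other CLP libraries. Its marginal zone macrophage sum was 373 against 112 to 224 CPM. That sum was almost all Marco, with Cd209b at 0.164 and Cd209d at 0 CPM in this library. The part of either sum in the results was not tested.

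Among 9021 genes with at least 5 CPM, the log2 CPM of Rgs3, a regulator of G-protein signalling, was most like that of Tlr4 over the 8 libraries (Pearson r = 0.998), and fell from 57.1 ± 8.72 to 21.7 ± 2.41 CPM. Tmem106b, a lysosomal membrane protein gene (r = 0.998, 93.6 to 56.2 CPM), and Zfyve26 (r = 0.997, 65.2 to 42.1 CPM) came next. For Cd14 the 3 most alike were Pik3r1, a regulatory subunit of PI3 kinase (1255 to 3523 CPM), Cpeb2 (93.6 to 445 CPM) and Stk17b (982 to 2090 CPM), each with r = 0.999. The 8 points share the step between the groups, which sets most of each r.

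The genes around the receptor were taken from 8 lists. Of all 14004 tested genes 43.3% were called, 19.8% as higher and 23.5% as lower. With library totals 1286 of all genes were higher and 6435 lower, against 2767 and 3297 with TMM. The share called was 33.3% for LPS-binding genes, 70% for folding and trafficking, 46.2% for the MyD88 arm and 77.8% for the TRIF arm. It was 66.7% for the brakes, 100% for NF-kB targets, 36.4% for interferon targets and 53.3% for other receptors. Among other genes that bind or sense LPS, 3 of 9 tested rose and 0 fell (median log2 fold change 0.24). Casp4, the cytosolic LPS sensor caspase-11, went from 36.7 ± 9.48 to 90.6 ± 22.3 CPM (log2 difference 1.31, adjusted p = 0.00173). Aoah, a lipase that inactivates LPS, went from 52.1 ± 3.12 to 96.9 ± 37.0 CPM (0.90, adjusted p = 0.0103), with CLP replicate 3 at 152 CPM above 75.6 to 83.2 CPM in the others. Itgb2, the beta chain of the complement receptor CR3, went from 822 ± 46.5 to 1111 ± 35.4 CPM (0.43, adjusted p = 0.000537). With library totals 1 of this list was higher and 1 lower, and Aoah and Itgb2 did not pass. Aoah also did not pass with no filter on low counts (0.87, adjusted p = 0.0574).

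Of 10 genes for folding and trafficking of TLR4, 6 rose and 1 fell (median 0.28), against 2 and 2 with library totals. Rab10, a small GTPase that carries TLR4 to the surface, went from 303 ± 37.6 to 612 ± 88.8 CPM (log2 difference 1.01, adjusted p = 6.80e-05), and Syk, a kinase in CD14-dependent uptake of TLR4, from 1005 ± 95.9 to 1685 ± 208 CPM (0.75, adjusted p = 0.000209). Rab7b, which sends TLR4 to lysosomes, went from 8.68 ± 1.54 to 13.5 ± 3.18 CPM (0.64, adjusted p = 0.0206), but it did not pass when CLP replicate 1 (0.0517) or 4 (0.0692) was left out, with library totals (0.31, adjusted p = 0.184) and with a replicate block (0.62, adjusted p = 0.0561). The 1 lower gene was Rab11fip2, at 14.8 ± 0.757 and 9.71 ± 1.09 CPM. Genes named beyond the rule for named genes, such as this one, were named after their values were seen, to complete a small count.

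Downstream of MyD88, 4 of 13 genes rose and 2 fell (median 0.08), and with library totals 2 rose and 5 fell. Irak2, a kinase of the Myddosome, went from 107 ± 22.7 to 319 ± 10.8 CPM (log2 difference 1.58, adjusted p = 1.00e-05) and Traf6, the ubiquitin ligase below it, from 50.6 ± 5.21 to 106 ± 10.3 CPM (1.07, adjusted p = 1.26e-05). Tab1, a partner of the kinase TAK1, fell from 13.3 ± 1.52 to 4.64 ± 0.773 CPM (-1.52, adjusted p = 2.64e-05). Map3k7, TAK1 itself, was called higher (0.21, adjusted p = 0.047) but turned to -0.11 with library totals and lost its call when any of CLP replicates 1, 3 and 4 or sham replicates 1 and 2 was left out, with no filter on low counts and with 1 surrogate variable. Ube2n (0.33) was at 0.01 with library totals (adjusted p = 0.95) and did not pass without CLP replicate 4 (0.0501). Irak4, the first kinase of the arm, was lower by -0.25 and did not pass without sham replicate 1, 2 or 3 (up to 0.0691).

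Downstream of TRIF, 4 of 9 genes rose and 3 fell (median 0.24), with 3 and 3 under library totals. Ikbke, a kinase that acts on IRF3, was at 15.7, 18.8, 35.5 and 13.6 CPM in sham and at 53.1, 50.6, 197 and 94.8 CPM in CLP. Its log2 fold change was 2.25 (adjusted p = 0.014), and 1.68 without CLP replicate 3. Tank, an adaptor of these kinases, went from 107 ± 13.2 to 292 ± 20.8 CPM (1.45). Traf3 (0.58) and Tbk1 (0.63) were also higher, and with library totals Tbk1 passed (0.31, adjusted p = 0.0305) while Traf3 did not (0.26, adjusted p = 0.0929). Tradd, a death-domain adaptor, fell from 19.1 ± 1.27 to 12.1 ± 2.64 CPM (-0.65, adjusted p = 0.00428). The transcription factor gene Irf3 was lower by -0.39 (adjusted p = 0.0134) but not past the threshold without sham replicate 2 (0.0627), and Tbkbp1 was lower by -0.34 and lost its call when any of CLP replicates 2 and 4 or sham replicates 1, 2 and 4 was left out (adjusted p up to 0.146), and with DESeq2 (0.0535) or its size factors (0.0604).

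Of 15 brakes on the pathway, 6 rose and 4 fell (median 0.20), with 6 and 6 under library totals. Tnfaip3, the NF-kB inhibitor A20, went from 838 ± 190 to 5000 ± 118 CPM (log2 difference 2.58), Socs1 from 7.40 ± 1.64 to 40.2 ± 13.8 CPM (2.44), and Irak3, which blocks the Myddosome, from 51.3 ± 4.50 to 105 ± 41.5 CPM (1.03). For Irak3, CLP replicate 3 stood at 165 CPM, above 75.8 to 99.7 CPM in the other CLP libraries. Its call held in all 16 alternatives (log2 fold change 0.72 to 1.16). The lower genes were the ubiquitin ligase genes Rnf216 (-0.31) and Rnf41 (-0.73), Trafd1 (-0.57) and the phosphatase gene Ptpn6 (-0.33).

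Target genes were counted in 2 lists, 1 of NF-kB targets and 1 of IRF3 and interferon targets. Through which arm a gene changed was not tested. All 11 NF-kB targets rose (median 3.42), also with library totals, led by Il12b (log2 fold change 5.05), Cxcl1 (4.65) and Cxcl2 (4.08), and Il1b went from 480 ± 127 to 3514 ± 1028 CPM. The first 2 started from low sham levels. Il12b went from 2.37 ± 1.85 to 74.9 ± 26.8 CPM (SE of the log2 fold change 0.59), and Cxcl1 from 7.63 ± 3.08 to 189 ± 76.1 CPM (SE 0.45). Of 11 tested IRF3 and interferon targets, 3 rose and 1 fell (median 0.43), with 2 and 2 under library totals. Cxcl10, a chemokine gene, went from 41.0 ± 15.9 to 157 ± 32.5 CPM (1.94), Ccl5 from 3.86 ± 0.464 to 13.8 ± 3.38 CPM (1.84), and Ifit3 fell from 34.9 ± 4.27 to 21.5 ± 5.81 CPM (-0.70). Rsad2 was called at 0.66 (adjusted p = 0.0484), with overlapping groups, and lost the call in 9 of 16 alternatives, among them each CLP library left out and sham replicates 1 to 3 (up to 0.105). Ifnb1, interferon-beta, was below the filter with means of 0.0103 CPM after sham surgery and 0.139 CPM after CLP. No test of the difference between the 2 target lists was made.

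Among 15 other receptors that use these adaptors, 5 rose and 3 fell (median 0.23), with 2 and 3 under library totals. Tlr2, the receptor for bacterial lipopeptides, went from 154 ± 24.8 to 410 ± 59.0 CPM (log2 difference 1.41, adjusted p = 2.11e-05), and Tlr6, its partner, from 29.1 ± 3.11 to 53.3 ± 4.99 CPM (0.87). Tlr7, a receptor for single-stranded RNA, was called higher, from 355 ± 26.9 to 444 ± 37.5 CPM (0.32), and was at 0.01 with library totals. Tlr13 (0.49) and Il1r1 (0.53) were the other higher genes and did not pass with library totals. Tlr11, a profilin receptor, fell from 9.53 ± 1.48 to 4.06 ± 0.629 CPM (-1.23), and the endosomal receptors Tlr3 (-0.57) and Tlr9 (-0.47) were lower as well. Tlr4 was thus not the only Toll-like receptor gene below its sham level.

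**Figure D5:**
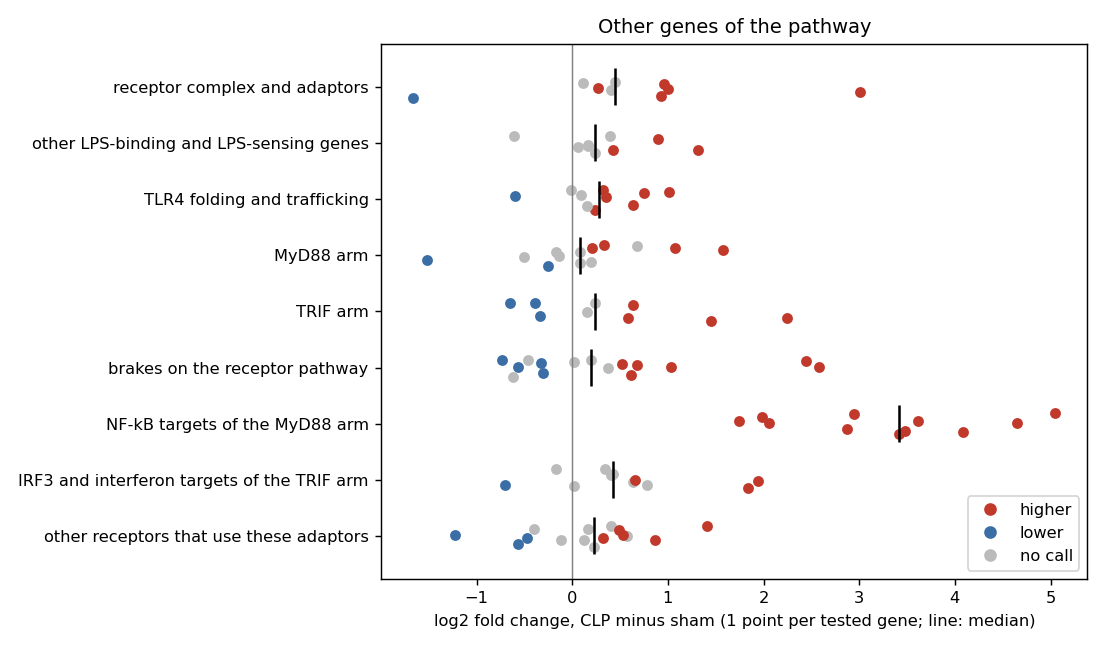
Log2 fold change (TMM scaling) of each tested gene in the receptor set and the 8 pathway lists, coloured by call, with a line at the median of each list. All 11 NF-kB targets lie above 0, and the other lists hold higher, lower and uncalled genes, except that no LPS-binding gene was called lower; with library totals that list has 1 lower.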

How the data were processed

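RNA-seq read counts of flow-sorted red pulp macrophages were used, 4 libraries per group, grouped by the sample titles. Per the labels' protocols the RNA was total RNA and the library kit a stranded TruSeq kit. The authors deposited 1 table of raw counts, with Ensembl IDs as rows. FastQC, STAR 2.7.10b, featureCounts, DESeq2 and build mm39 are named, without roles, per the submitters' processing notes; neither annotation release nor strand setting is stated in them. Symbols and exon lengths came from GENCODE mouse release M21 on an older build (52081 of 55414 rows named), so no gene coordinates are given beyond the RefSeq promoters.

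The 14004 genes that filterByExpr kept were tested by the robust quasi-likelihood F-test of edgeR 4.0.16 (R 4.3.3), with the 2 groups and no covariate. TMM factors were 0.873 to 0.915 for CLP and 1.08 to 1.15 for sham libraries. Benjamini-Hochberg adjustment ran over all tested genes, and adjusted p-values of single genes in the text are from this test unless another is named. SE is the absolute log2 fold change over the square root of F. Values are mean ± SD of 4 libraries. Ratios are of raw counts with 0.5 added to each gene. No 2 libraries of a group agreed within counting error (chi-square per degree of freedom at least 9.25), so none was treated as a second deposit of another; this does not show that they came from separate mice. Total counts set the precision: a gene at 1 CPM rests on few reads.

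Members, lists and alternatives were chosen with earlier results of these data known, so they are not independent of them. Named genes are the 9 members, from each pathway list the 3 called genes with the largest change among those of at least 5 CPM, plus its most abundant gene, the most abundant gene of each marker list, and the 3 genes most like Tlr4 and Cd14. Alternatives were DESeq2 1.42.0, limma-voom (limma 3.58.1), DESeq2 size factors, library totals, no filter on low counts, a filter at a mean of 1 CPM, 1 surrogate variable (sva 3.50.0), a replicate block and each library left out. For ratios they were a pseudocount of 2, the block and each library left out. The longest transcript as gene length was added after seeing the data. The fits were run on simulated counts with known fold changes in both directions, which did not test the choice of library scaling. Python 3.11.15 with matplotlib 3.10.9 drew the plots.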

Additional observations from a re-analysis of the deposited data

Results flagged for a closer look

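Of 34 groups of 4 libraries examined for a single library apart from the rest, 2 held one, and chance gives about 1 in 20. Ly86 stood at 217 CPM in sham replicate 1, against 195 to 196 CPM in the other sham libraries, a gap of 0.925 of the group's range. The log2 ratio of Cd14 to Tlr4 was 1.06 in sham replicate 4, against 2.38 to 2.59 in the other sham libraries, a gap of 0.861 of the range. No explanation was tested for either.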

How the results depend on the processing

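Under 16 alternatives Tlr4 (log2 fold change -1.98 to -1.51), Cd14 (2.70 to 3.14), Ly96 (0.68 to 1.07), Myd88 (0.62 to 1.04) and Ticam1 (0.64 to 1.03) kept direction and call, and Ticam2 passed in none (adjusted p 0.0581 to 0.779). Library totals moved the most: Cd180 -0.21, Ly86 -0.05, Cnpy3 -0.07, Tmed7 -0.00 and Map3k7 -0.11 reversed, 2 members were lower, and of all genes 1286 were higher and 6435 lower, against 2767 and 3297. With library totals the higher and lower counts were 1 and 1 of the LPS-binding genes, 2 and 2 of the folding genes and 2 and 5 of the MyD88 arm. Interferon targets then had 2 lower and other receptors 2 higher. With each library left out, the MyD88 arm had 2 to 5 higher and 1 to 3 lower genes, and the TRIF arm 1 to 3 lower. Differences in log2 ratio with each library left out were 4.35 to 4.86 for Cd14/Tlr4, 2.48 to 2.78 for Ly96/Tlr4, 1.67 to 1.85 for Cd180/Tlr4, -0.80 to -0.62 for Ly86/Ly96, -0.60 to -0.45 for Tirap/Myd88, 0.12 to 0.20 for Ly86/Cd180, -0.10 to 0.17 for Ticam1/Myd88 and -0.79 to -0.42 for Ticam2/Ticam1. Without CLP replicate 2, sham replicate 3 or sham replicate 4, Tirap/Myd88 had an exact p of 0.0571 and the other 4 called ratios stayed at 0.0286, which gives adjusted values of 0.0914 and 0.0571. The cause of the other changes was not tested.

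Replicate numbers are shared by the groups, and the labels do not say that they pair libraries. Deviations from the group mean, over all tested genes, correlated at 0.0743, -0.0377, 0.261 and -0.192 between same-numbered libraries. Between libraries of different numbers they correlated at -0.208 to 0.191. So few values cannot settle whether the numbers mark pairs. With a replicate block no member's call changed, Rab7b lost its call (0.62, adjusted p = 0.0561) and no other named pathway gene did, and the blocked log2 fold changes of Tlr4 and Cd14 were -1.65 and 3.05. Blocked ratios kept their differences (4.71, 2.65, 1.76, -0.73 and -0.53) but could not pass, since 4 pairs allow a smallest exact p of 0.125. Depth limits genes near or below 1 CPM, such as Ifnb1, and each member stood above that in all 8 libraries.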
